A study of Arabidopsis thaliana with 21 samples.

Results

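Leaves of Arabidopsis thaliana store part of the carbon they fix by day as starch granules inside the chloroplast and degrade that starch at night. The 10 genes described here encode the enzymes that build the granule. ADP-glucose pyrophosphorylase makes the glucosyl donor ADP-glucose and has a small subunit, APS1, and large subunits that include APL1 and APL3. Starch synthases then extend glucan chains: GBSS1 is bound to the granule and makes amylose, whereas the soluble enzymes SS1, SS2 and SS3 extend amylopectin chains and SS4 is known for granule initiation. The branching enzymes SBE2.1 and SBE2.2 introduce the branch points of amylopectin. The 10 genes were taken by locus tag from the 33341 loci of the count files, and no measured value entered that rule. They were chosen with earlier results of these data known. Of the 10 genes, 10 passed the filter on low counts that left 19626 loci for testing.

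RNA was sequenced from whole rosettes of Col-0, an inbred laboratory accession. The plants were 21 days old and had been raised in soil pots at 22 °C with days of 16 h and nights of 8 h. The groups were high light of 500 µE for 2, 5 and 8 h, standard light of 100 µE for 2, 5 and 8 h, and a dark control taken once at the end of the night, with 3 libraries in each and 21 in all. All plants shared the Col-0 genotype and an overnight stay in sealed, humidified chambers before the lamps came on, and how many plants made up a sample was not stated in the labels. The hours of light and the time of day rose together. They cannot be told apart in a comparison over the dark control or of 8 h over 2 h within a light. All 6 light groups were set against the same 3 dark libraries.

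Total counts ran from 6545003 to 31449700 per library with a median of 13592728. The share of counts on 11 ribosomal RNA loci ran from 0.0423% to 32.9% and averaged 1.78%, 11.0% and 23.0% at 2, 5 and 8 h of high light, 11.6%, 3.15% and 5.38% at the same times of standard light, and 3.00% in the dark. Replicate 1 of 2 h standard light had the lowest depth and 17.2% ribosomal RNA. Replicate 3 of 5 h high light had the highest ribosomal RNA share, 32.9%, against 0.072% and 0.0423% in replicates 1 and 2 of that group. The summed level of 5 leaf mesophyll markers was 6691 CPM or more in every library, against at most 30.2 CPM for 6 root markers, 4.48 CPM for 4 flower markers and 0.141 CPM for 4 seed markers, of which 2 were at 0 in all libraries. Some of these sums moved with the groups. The mesophyll sum was 6691 to 7352 CPM at 8 h of high light and 7077 to 8189 CPM at 8 h of standard light, against 17432 to 25250 CPM in the dark. It also differed widely within a group, from 7218 to 24694 CPM between the 3 libraries at 5 h of high light. Sums of 4 vascular markers ran from 33.4 to 67.6 CPM in the light libraries, against 75.9 to 83.9 CPM in the dark. Sums of 4 guard cell markers ran from 20.9 to 34.6 CPM over all libraries. The part of these marker levels in the changes over dark was not tested.

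The genes lie apart from each other on all chromosomes of the TAIR10.1 build, and the counts cover each gene from start to end, introns included. The ADP-glucose pyrophosphorylase subunits are APS1 (AT5G48300, chr5:19570238-19572804, plus strand), APL1 (AT5G19220, chr5:6463824-6466831, minus strand) and APL3 (AT4G39210, chr4:18259547-18263468, plus strand). Granule-bound synthase is GBSS1 (AT1G32900, chr1:11920390-11923866, minus strand). The soluble synthases are SS1 (AT5G24300, chr5:8266566-8271205, plus strand), SS2 (AT3G01180, chr3:62245-66111, minus strand), SS3 (AT1G11720, chr1:3951366-3957044, plus strand) and SS4 (AT4G18240, chr4:10082108-10087203, plus strand). The branching enzymes are SBE2.1 (AT2G36390, chr2:15264211-15270092, plus strand) and SBE2.2 (AT5G03650, chr5:931762-937702, plus strand). No other annotated gene overlaps a member on the same strand, and counting used the strand.

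The 300 bases upstream of each annotated gene start, read from TAIR10.1, were searched on both strands for 4 short motifs known from light- and clock-regulated plant genes. The G-box CACGTG, a core sequence bound by basic leucine zipper and basic helix-loop-helix factors, occurred upstream of 4 of 10 members, SS1, SS3, SS4 and SBE2.1, against 7.09% of the 27443 upstream windows of the annotation. The CCA1-binding site AAAAATCT occurred upstream of SBE2.2 and in 7.94% of all windows, and the I-box GATAAG upstream of SS2 and in 14.5% of all windows. The evening element AAAATATCT, present in 2.79% of all windows, was not among the letters of these 10. The 4 windows with a G-box are shown with that motif in capitals, because SS4 and SBE2.1 were the members whose transcripts rose between 2 and 8 h of high light. The other members with this motif did not share that course, since SS3 fell between those times (log2 fold change -0.63 ± 0.21 SE, adjusted p = 0.0321) and SS1 was not called (log2 fold change -0.16 ± 0.17 SE, adjusted p = 0.554). The GBSS1 window, with no full match to any of the 4 motifs, is shown beside them because GBSS1 moved over the widest range. Its last letters, aaaatatc, match the evening element up to the final letter of that motif. The same letters also occur within the SS1 window and, on the other strand, within the SBE2.1 window. Their share over all windows was not counted. The base after the GBSS1 window lies outside it and was not searched. Each runs 5′ to 3′ on the strand of its gene, ends at the base before the annotated start, and lies at chr5:8266266-8266565, plus strand (SS1), chr1:3951066-3951365, plus strand (SS3), chr4:10081808-10082107, plus strand (SS4), chr2:15263911-15264210, plus strand (SBE2.1) and chr1:11923867-11924166, minus strand (GBSS1).
SS4: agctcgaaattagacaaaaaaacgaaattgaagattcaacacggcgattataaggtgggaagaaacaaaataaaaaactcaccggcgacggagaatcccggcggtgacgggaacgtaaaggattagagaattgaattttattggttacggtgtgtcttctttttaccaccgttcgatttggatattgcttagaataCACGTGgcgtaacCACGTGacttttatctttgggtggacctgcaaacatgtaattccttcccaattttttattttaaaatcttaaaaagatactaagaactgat
SBE2.1: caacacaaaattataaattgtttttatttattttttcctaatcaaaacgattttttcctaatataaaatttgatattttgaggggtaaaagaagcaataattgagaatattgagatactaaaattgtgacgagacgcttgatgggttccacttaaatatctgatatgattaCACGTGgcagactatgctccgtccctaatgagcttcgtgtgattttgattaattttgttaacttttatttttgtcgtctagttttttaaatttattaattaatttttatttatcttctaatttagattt
SS1: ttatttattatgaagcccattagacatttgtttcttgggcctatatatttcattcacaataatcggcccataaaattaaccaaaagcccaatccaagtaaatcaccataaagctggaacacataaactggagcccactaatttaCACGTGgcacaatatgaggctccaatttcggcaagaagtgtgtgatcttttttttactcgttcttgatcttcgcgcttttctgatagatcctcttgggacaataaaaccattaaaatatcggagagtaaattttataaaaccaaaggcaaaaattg
SS3: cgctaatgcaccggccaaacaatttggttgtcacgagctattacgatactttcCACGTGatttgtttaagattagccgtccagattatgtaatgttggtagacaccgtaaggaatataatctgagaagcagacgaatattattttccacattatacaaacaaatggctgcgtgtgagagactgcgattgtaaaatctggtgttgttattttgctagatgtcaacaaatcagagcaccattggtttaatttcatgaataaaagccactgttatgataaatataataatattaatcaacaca
GBSS1: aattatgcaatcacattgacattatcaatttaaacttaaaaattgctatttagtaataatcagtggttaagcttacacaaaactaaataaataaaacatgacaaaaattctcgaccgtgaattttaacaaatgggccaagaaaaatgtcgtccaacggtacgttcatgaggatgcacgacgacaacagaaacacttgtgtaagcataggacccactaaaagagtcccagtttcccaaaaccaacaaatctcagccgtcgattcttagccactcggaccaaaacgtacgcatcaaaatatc
SS4 holds the motif at 2 places, from -104 to -99 and from -91 to -86 relative to the gene start, and the other 3 hold it once, from -129 to -124 in SBE2.1, from -156 to -151 in SS1 and from -247 to -242 in SS3. A match describes the letters of the window and does not show that a factor binds there.

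Levels are given as counts per 1e6 counts (CPM) with library sizes scaled by the trimmed mean of M-values (TMM), and, to set genes side by side, as CPM per kilobase of the counted span. Averaged over the 7 groups, the ADP-glucose pyrophosphorylase subunits APS1 and APL1 had the highest levels, at 51.7 and 49.1 CPM per kilobase, and SS2 had the lowest. The order between them was APS1, APL1, GBSS1, SS1, SS4, SBE2.1, APL3, SBE2.2, SS3 and SS2. Per kilobase of exons instead of span, APL1 (85.2) stood before APS1 (69.9) and SBE2.2 before APL3. The widest course was that of GBSS1, whose highest group mean was 166 times its lowest, followed by SBE2.1 at 8.99 times, APL3 at 7.09 times and SS4 at 6.38 times. APL1 had the narrowest, at 1.77 times. In high light 5 members had their highest mean at 2 h (APS1, APL1, GBSS1, SS2 and SS3), 4 at 5 h (APL3, SS1, SBE2.1 and SBE2.2) and 1 at 8 h (SS4). In standard light 6 members were highest at 2 h, now with SS1 among them, and the other 4, APL3, SS4, SBE2.1 and SBE2.2, at 5 h.

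**Figure D1:**
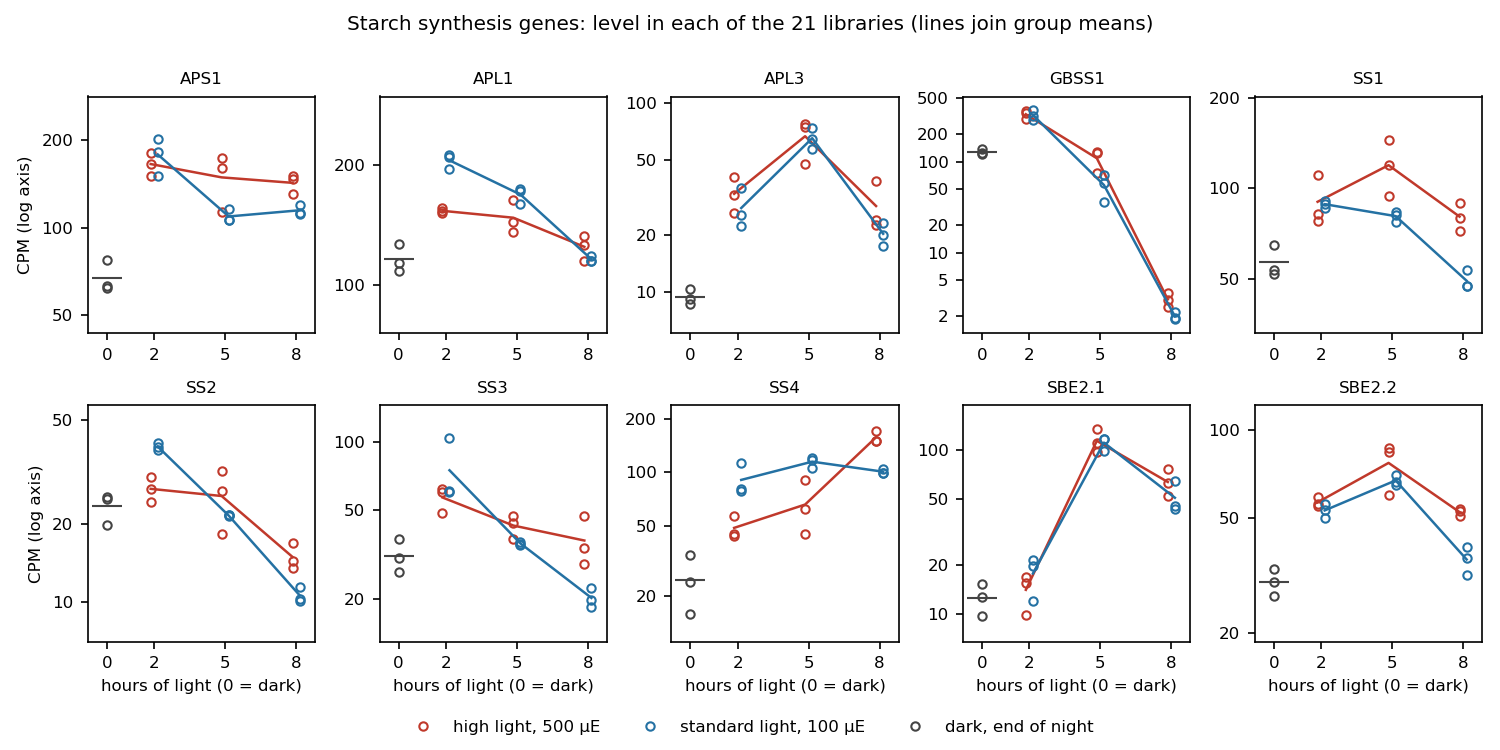
Level of each starch synthesis gene in CPM, on log axes that differ between panels, against hours of light, with the dark control at 0. Each circle is 1 of the 21 libraries and lines join group means. GBSS1 drops to between 1.88 and 3.66 CPM in all 6 libraries taken at 8 h, SBE2.1 and APL3 are highest at 5 h, and SS4 is highest at 8 h of high light.

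Among the members APS1, APL1 and APL3, the large subunit APL3 changed most, the catalytic small subunit APS1 less, and the main leaf large subunit APL1 least. Other genes of ADP-glucose pyrophosphorylase, APS2, APL2 and APL4, are not members and are not ranked here. APL3 had 10.4, 9.18 and 8.63 CPM in the 3 dark libraries. In high light it had 32.3, 26.0 and 40.7 CPM at 2 h, 77.3, 47.7 and 74.9 CPM at 5 h and 38.7, 24.0 and 22.6 CPM at 8 h. In standard light the values were 25.6, 22.3 and 35.3 CPM at 2 h, 57.2, 73.8 and 64.1 CPM at 5 h and 20.0, 17.5 and 23.2 CPM at 8 h. Every light library was above every dark library, and the libraries of both lights overlapped at each time. APL3 rose over dark by 7.08-fold at 5 h of high light (log2 fold change 2.82 ± 0.24 SE, adjusted p = 7.49e-10) and by 6.92-fold at 5 h of standard light (log2 fold change 2.79 ± 0.24 SE, adjusted p = 1.14e-09). It also rose over dark at 2 h and 8 h in both lights, by between 2.16-fold and 3.51-fold. APS1 averaged 166 ± 14.6 CPM at 2 h, 149 ± 31.8 CPM at 5 h and 143 ± 11.1 CPM at 8 h of high light (SD, n = 3 each). In standard light it averaged 179 ± 25.7, 109 ± 5.38 and 115 ± 4.54 CPM at the same times, against 67.5 ± 8.55 CPM in the dark (SD, n = 3 each). APS1 rose over dark in all 6 light groups, by 1.62-fold to 2.65-fold, with adjusted p of 0.00166 or less in edgeR's quasi-likelihood test. APL1 rose over dark at 2 h of standard light (log2 fold change 0.82 ± 0.14 SE, adjusted p = 5.99e-05), at 5 h of standard light (log2 fold change 0.54 ± 0.14 SE, adjusted p = 0.0034) and at 2 h of high light (log2 fold change 0.40 ± 0.14 SE, adjusted p = 0.0259). At 5 h of high light every APL1 library was above every dark one, without a call (log2 fold change 0.34 ± 0.14 SE, adjusted p = 0.0517). That value passed with DESeq2 (adjusted p = 0.00553), limma voom (0.0279), the ribosomal RNA share as a covariate (0.0388), without high-light replicate 1 (0.0345) or 3 (0.0474) and without dark replicate 3 (0.0446). By 8 h its level was 125 ± 8.83 CPM in high light and 116 ± 1.80 CPM in standard light, against 116 ± 9.48 CPM in the dark, with no call in either light. The call for APL1 at 2 h of high light was lost without high-light replicate 1 (adjusted p = 0.0568) or 3 (0.051), without dark replicate 1 (0.0896) or 2 (0.0731), with only those 6 libraries in the fit (0.0581) and with no filter on low counts (0.17). In bulk tissue of this kind, fewer cells of a type and less RNA per cell cannot be told apart.

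GBSS1, which makes amylose and is known as a target of the circadian clock factors CCA1 and LHY, had the largest change of the 10 genes. Its level in the dark was 139, 122 and 125 CPM. In high light it was 362, 293 and 342 CPM at 2 h, 124, 75.4 and 128 CPM at 5 h and 3.03, 2.55 and 3.66 CPM at 8 h. In standard light it was 286, 319 and 372 CPM at 2 h, 36.4, 72.2 and 58.0 CPM at 5 h and 1.91, 1.88 and 2.22 CPM at 8 h. The 6 libraries at 2 h were above all others, and the 6 libraries at 8 h were below all others. The lowest count of GBSS1 in any library was 21 reads, above the floor of 3 counts. Between 2 h and 8 h GBSS1 fell 108-fold in high light (log2 fold change -6.76 ± 0.29 SE, adjusted p = 1.3e-14) and 162-fold in standard light (log2 fold change -7.34 ± 0.29 SE, adjusted p = 5.47e-15). Over the dark control it rose at 2 h, by 2.59-fold in high light and 2.54-fold in standard light. At 8 h it was 41.8-fold lower than in the dark in high light (log2 fold change -5.38 ± 0.27 SE, adjusted p = 8.81e-14) and 63.7-fold lower in standard light (log2 fold change -5.99 ± 0.28 SE, adjusted p = 1.92e-14). At 5 h GBSS1 had fallen below dark in standard light (log2 fold change -1.21 ± 0.22 SE, adjusted p = 6.37e-05), whereas in high light its libraries overlapped those in the dark (log2 fold change -0.23 ± 0.21 SE, adjusted p = 0.392).

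SS1, which extends short amylopectin chains, rose over dark early in both lights and stayed above dark at 8 h in high light. It had 53.5, 51.8 and 64.7 CPM in the dark. In high light the values were 77.6, 111 and 81.9 CPM at 2 h, 144, 119.7 and 93.9 CPM at 5 h and 89.5, 79.7 and 72.2 CPM at 8 h. Standard light gave 88.5, 86.0 and 90.9 CPM at 2 h, 77.0, 83.6 and 81.6 CPM at 5 h and 53.3, 47.3 and 47.1 CPM at 8 h. At 2 h the libraries of both lights overlapped and lay above the dark ones, and at 5 h and 8 h every high-light library was above every standard-light library. SS1 rose over dark in high light at 2 h (log2 fold change 0.67 ± 0.17 SE, adjusted p = 0.00274), 5 h (log2 fold change 1.08 ± 0.17 SE, adjusted p = 1.33e-05) and 8 h (log2 fold change 0.51 ± 0.17 SE, adjusted p = 0.0179), and in standard light at 2 h (log2 fold change 0.64 ± 0.17 SE, adjusted p = 0.00405) and 5 h (log2 fold change 0.51 ± 0.17 SE, adjusted p = 0.017). At 8 h of standard light SS1 had a log2 fold change of -0.20 ± 0.17 SE over dark (adjusted p = 0.362). The 5 h standard-light call was lost without dark replicate 1 (adjusted p = 0.0544), dark replicate 2 (0.0707) or standard-light replicate 2 (0.0526). The 8 h high-light call was lost without dark replicate 1 (adjusted p = 0.0577), dark replicate 2 (0.0723) or high-light replicate 1 (0.0516), and with no filter on low counts (0.05).

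SS2 and SS3, which extend intermediate and long amylopectin chains, were highest at 2 h and declined to 8 h in both lights. SS2 had 24.8, 25.3 and 19.8 CPM in the dark. Its high-light libraries held 27.2, 24.3 and 30.1 CPM at 2 h, 31.7, 18.3 and 26.6 CPM at 5 h and 13.5, 14.3 and 16.9 CPM at 8 h. Its standard-light libraries held 38.3, 40.6 and 39.4 CPM at 2 h, 21.3, 21.6 and 21.5 CPM at 5 h and 11.5, 10.3 and 10.1 CPM at 8 h. All 6 libraries at 8 h were below all dark libraries. SS2 fell between 2 h and 8 h by 1.83-fold in high light (log2 fold change -0.87 ± 0.18 SE, adjusted p = 0.00105) and by 3.71-fold in standard light (log2 fold change -1.89 ± 0.19 SE, adjusted p = 2.21e-08). At 8 h it was below dark in high light (log2 fold change -0.65 ± 0.18 SE, adjusted p = 0.00514) and in standard light (log2 fold change -1.13 ± 0.19 SE, adjusted p = 2.28e-05), the first of which was lost without high-light replicate 1 (adjusted p = 0.0559). SS3 had 36.8, 26.5 and 30.4 CPM in the dark. It had 48.4, 59.8 and 61.5, 43.7, 37.0 and 46.8 and then 47.0, 33.8 and 28.5 CPM at 2, 5 and 8 h of high light. Standard light gave 104, 60.1 and 60.1, 34.9, 35.9 and 35.2 and then 22.4, 19.8 and 18.5 CPM at the same times. Replicate 1 of 2 h standard light, the shallowest library, held the highest SS3 value of the series. SS3 rose over dark at 2 h, by 1.81-fold in high light and 2.38-fold in standard light, and fell below dark at 8 h of standard light (log2 fold change -0.63 ± 0.21 SE, adjusted p = 0.019). Between 2 h and 8 h it fell by 3.67-fold in standard light (log2 fold change -1.88 ± 0.21 SE, adjusted p = 2.28e-07) and by 1.54-fold in high light (log2 fold change -0.63 ± 0.21 SE, adjusted p = 0.0321). The 8 h standard-light call over dark was lost without dark replicate 1 (adjusted p = 0.0962), standard-light replicate 2 (0.0588) or 3 (0.0767). The 8 h over 2 h call in high light was lost without replicate 2 (0.0902) or 3 (0.0955) of 2 h and without replicate 2 (0.146) or 3 (0.214) of 8 h.

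SS4, known for granule initiation, was above dark in all 6 light groups, and its highest mean came at 8 h in high light and at 5 h in standard light. The dark libraries held 34.0, 24.2 and 15.9 CPM. High light gave 45.0, 44.0 and 56.7 CPM at 2 h, 44.7, 61.7 and 90.9 CPM at 5 h and 171, 151 and 151 CPM at 8 h. Standard light gave 113, 78.2 and 80.8 CPM at 2 h, 121, 106 and 117 CPM at 5 h and 98.7, 99.2 and 104 CPM at 8 h. High-light libraries were all below standard-light libraries at 2 h and at 5 h, and all above them at 8 h. Over dark SS4 was 1.97-fold higher at 2 h, 2.65-fold at 5 h and 6.38-fold at 8 h of high light, with log2 fold changes of 0.98 ± 0.24, 1.41 ± 0.24 and 2.67 ± 0.25 SE. In standard light it was 3.66-fold, 4.65-fold and 4.08-fold higher at the same times, with log2 fold changes of 1.87 ± 0.24, 2.22 ± 0.24 and 2.03 ± 0.24 SE. All 6 were called, with adjusted p of 0.00167 or less. Between 2 h and 8 h SS4 rose 3.24-fold in high light (log2 fold change 1.70 ± 0.24 SE, adjusted p = 7.57e-06), and in standard light its log2 fold change was 0.16 ± 0.23 SE (adjusted p = 0.674).

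Of the branching enzymes, SBE2.1 moved over a wider range of group means than SBE2.2, 8.99 against 2.57 times from lowest to highest. SBE2.1 had 15.3, 9.74 and 12.7 CPM in the dark. In high light it had 15.6, 16.7 and 9.89 CPM at 2 h, 133, 109 and 96.7 CPM at 5 h and 75.8, 52.5 and 62.5 CPM at 8 h. The standard-light libraries had 12.0, 19.7 and 21.4 CPM at 2 h, 98.3, 116 and 116 CPM at 5 h and 64.2, 45.2 and 43.6 CPM at 8 h. At 2 h the libraries of both lights overlapped those in the dark, and at 5 h and 8 h every light library was above all of them. SBE2.1 rose over dark at 5 h by 9.00-fold in high light (log2 fold change 3.17 ± 0.25 SE, adjusted p = 1.12e-10) and by 8.76-fold in standard light (log2 fold change 3.13 ± 0.25 SE, adjusted p = 1.75e-10). It rose over dark at 8 h by 5.07-fold in high light and 4.05-fold in standard light. At 2 h the log2 fold change over dark was 0.16 ± 0.24 SE in high light (adjusted p = 0.611) and 0.51 ± 0.24 SE in standard light (adjusted p = 0.0866). The standard-light value at 2 h passed the threshold without replicate 1 of that group (adjusted p = 0.0198), without dark replicate 1 (0.0468) and in a fit that took the ribosomal RNA share as a covariate (0.0182). SBE2.2 had 33.3, 26.8 and 30.0 CPM in the dark. Its high-light values were 54.6, 58.7 and 55.8 CPM at 2 h, 59.9, 86.9 and 84.2 CPM at 5 h and 53.3, 52.7 and 50.6 CPM at 8 h, and its standard-light values 50.0, 53.2 and 55.5, 66.4, 70.1 and 64.7 and then 39.6, 31.6 and 36.4 CPM at the same times. SBE2.2 rose over dark at 5 h by 2.56-fold in high light and 2.23-fold in standard light, with adjusted p of 1.29e-06 or less. At 8 h its log2 fold change over dark was 0.80 ± 0.16 SE in high light (adjusted p = 0.000169) and 0.26 ± 0.16 SE in standard light (adjusted p = 0.191).

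Counted over all members, most of the pathway was above dark at 2 h and the calls then divided. A gene is called here where its adjusted p in edgeR's quasi-likelihood test, with Benjamini-Hochberg adjustment over the 19626 loci, was below 0.05. At 2 h over dark, 8 of 10 members rose in high light and 9 of 10 in standard light, where 21.8% and 21.1% of all loci rose and 21.5% and 21.4% fell. The members not called were SS2 and SBE2.1 in high light and SBE2.1 in standard light. At 5 h over dark, 6 members rose in high light, where 24.3% of all loci rose and 22.8% fell, and in standard light 7 rose and 1, GBSS1, fell, against 22.9% and 23.8% of all loci. At 8 h over dark, 6 rose and 2 fell in high light, and 4 rose and 3 fell in standard light. Of all loci 23.4% rose and 23.9% fell in high light at that time, and 21.1% rose and 21.7% fell in standard light. GBSS1 and SS2 fell in both lights at 8 h, and SS3 was the further member that fell in standard light. The median log2 fold change of the 10 members over dark was 0.88, 1.11 and 0.65 at 2, 5 and 8 h of high light and 1.04, 0.62 and 0.13 at those times of standard light, where that of all loci stayed between 0.00 and 0.03. Between 2 h and 8 h, 2 members rose and 3 fell in high light, against 10% and 11.3% of all loci, and 1 rose and 7 fell in standard light, against 14.9% and 14.6%. SBE2.1 rose in both lights, SS4 in high light, and GBSS1, SS2 and SS3 fell in both. APS1, APL1, SS1 and SBE2.2 fell in standard light, and the SBE2.2 call was lost without 8 h standard-light replicate 2 (adjusted p = 0.061).

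**Figure D2:**
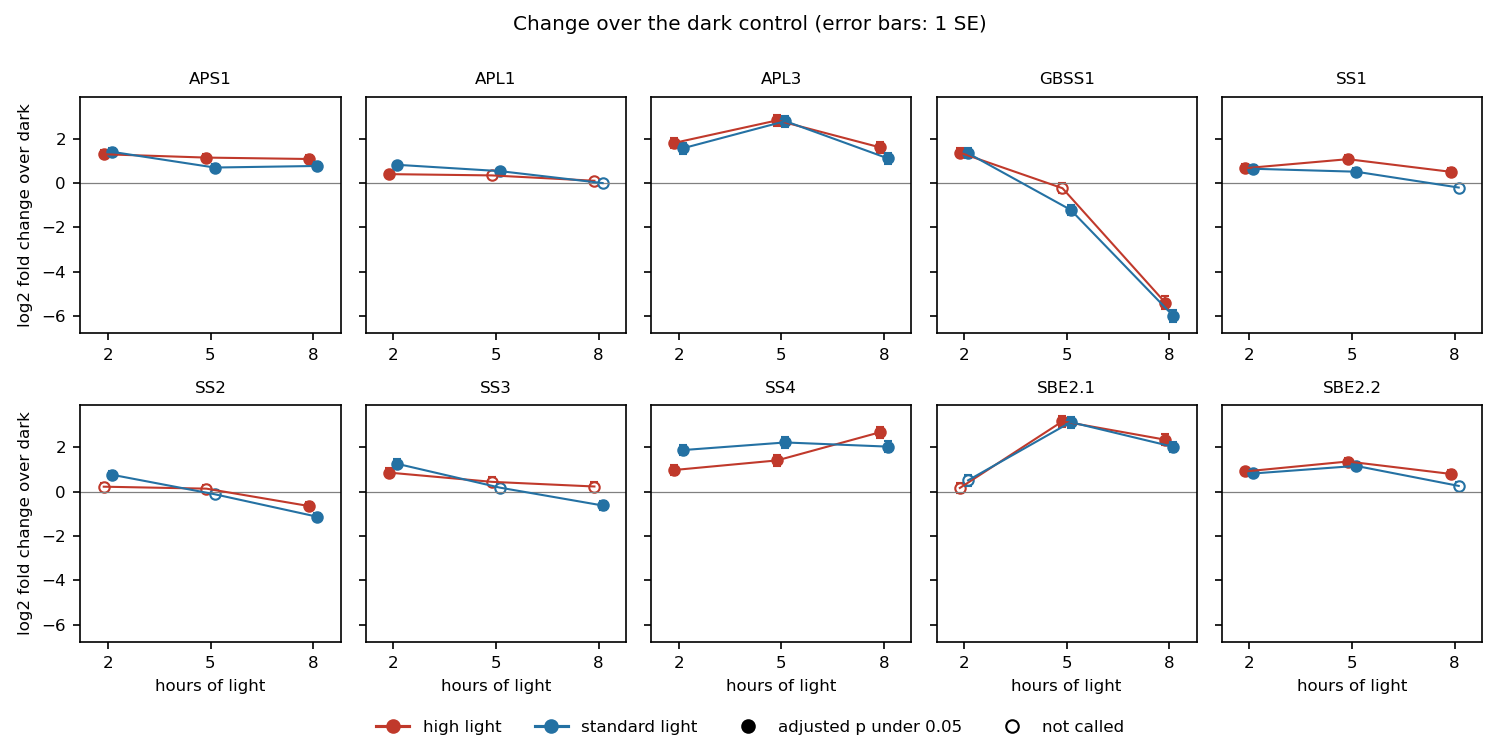
Log2 fold change over the dark control at 2, 5 and 8 h of high and standard light for each member, with bars of 1 SE from edgeR's fit. Filled points have an adjusted p under 0.05. GBSS1 goes down to -5.38 in high light and -5.99 in standard light at 8 h, whereas SBE2.1 and APL3 reach their highest values at 5 h.

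The design also asks what light of 500 µE did relative to 100 µE at the same time of day. At 2 h 1 of 10 members was called, SS4, which was 1.86-fold lower in high light (log2 fold change -0.90 ± 0.23 SE, adjusted p = 0.0402), where 1.22% of all loci fell and 1.45% rose. SS4 averaged 48.6 ± 7.06 CPM in high light and 90.6 ± 19.2 CPM in standard light (SD, n = 3 each). This call was lost without 2 h standard-light replicate 1 (adjusted p = 0.213) or 2 (0.0541), without high-light replicate 1 (0.142) or 2 (0.157), in a fit with the share of ribosomal RNA as a covariate (0.28), with the replicate number as a block (0.0517) and with only those 6 libraries in the fit (0.0573). The ribosomal RNA share averaged 1.78% in high light and 11.6% in standard light at that time. DESeq2 also called APL1 (log2 fold change -0.43, adjusted p = 0.00207) and SS2 (log2 fold change -0.55, adjusted p = 0.0476) as lower in high light.

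After 5 h, GBSS1 and SS1 were higher and SS4 was lower in high light. In all, 2 of 10 members rose, against 7.29% of all loci, and 1 fell, against 4.74%. GBSS1 averaged 109 ± 29.5 CPM in high light and 55.5 ± 18.0 CPM in standard light, a 1.97-fold difference (log2 fold change 0.98 ± 0.22 SE, adjusted p = 0.00504). SS1 averaged 119 ± 25.1 and 80.7 ± 3.39 CPM in high and standard light (log2 fold change 0.56 ± 0.17 SE, adjusted p = 0.0319). SS4 averaged 65.8 ± 23.3 CPM in high light and 115 ± 7.57 CPM in standard light and was 1.75-fold lower (log2 fold change -0.81 ± 0.23 SE, adjusted p = 0.0245). With only those 6 libraries in the fit the adjusted p was 0.0911 for GBSS1, 0.129 for SS1 and 0.105 for SS4, so that none was called by edgeR, against 4 with an unadjusted p under 0.05 in the fit to all groups and 4 called by DESeq2. The shares of all loci at these settings were not counted. The SS1 call was lost without high-light replicate 1 (adjusted p = 0.24) or 2 (0.0835) and without standard-light replicate 1 (0.122), 2 (0.0789) or 3 (0.0914). It was also lost with the ribosomal RNA share as a covariate (log2 fold change 0.40, adjusted p = 0.092) and with no filter on low counts (0.067). The SS4 call was lost without high-light replicate 1 (0.152) or 2 (0.0787) and without standard-light replicate 1 (0.0846) or 3 (0.0716). APS1, not called at 5 h (log2 fold change 0.45 ± 0.17 SE, adjusted p = 0.087), passed without high-light replicate 3, the library richest in ribosomal RNA (log2 fold change 0.58, adjusted p = 0.00936), and with DESeq2 (0.03).

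At 8 h the soluble synthases SS1 and SS3 and the branching enzyme SBE2.2 were higher in high light, which made 3 of 10 members, against 7.79% of all loci that rose and 7.62% that fell. SS1 averaged 80.4 ± 8.68 CPM in high light and 49.2 ± 3.49 CPM in standard light (log2 fold change 0.71 ± 0.17 SE, adjusted p = 0.00636). SS3 averaged 36.4 ± 9.54 and 20.3 ± 1.98 CPM in high and standard light (log2 fold change 0.86 ± 0.21 SE, adjusted p = 0.00705). SBE2.2 averaged 52.2 ± 1.42 and 35.9 ± 4.01 CPM in high and standard light (log2 fold change 0.54 ± 0.16 SE, adjusted p = 0.019). In each of the 3, every high-light library was above every standard-light library. The same held for APS1, GBSS1, SS2 and SS4, which were not called. The share of all loci with such a separation was not counted. The other 7 had log2 fold changes between 0.10 (APL1) and 0.65 (SS4), and the median of the 10 was 0.52, against -0.03 over all loci. SS4 averaged 157 ± 11.6 CPM in high light and 101 ± 3.06 CPM in standard light (log2 fold change 0.65 ± 0.23 SE, adjusted p = 0.0603). It passed with DESeq2 (adjusted p = 0.0375), limma voom (0.0461), no filter on low counts (0.0255) and only those 6 libraries in the fit (0.000328), a fit that also called APS1 (0.0226, and 0.0272 with the ribosomal RNA covariate) and SS2 (0.0198). Without high-light replicate 1 the adjusted p was 0.0737 for SS3 and 0.0559 for SBE2.2, which left SS1 alone, and SBE2.2 was also lost without standard-light replicate 2 (0.122) or 3 (0.061) and with no filter on low counts (0.0779).

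**Figure D3:**
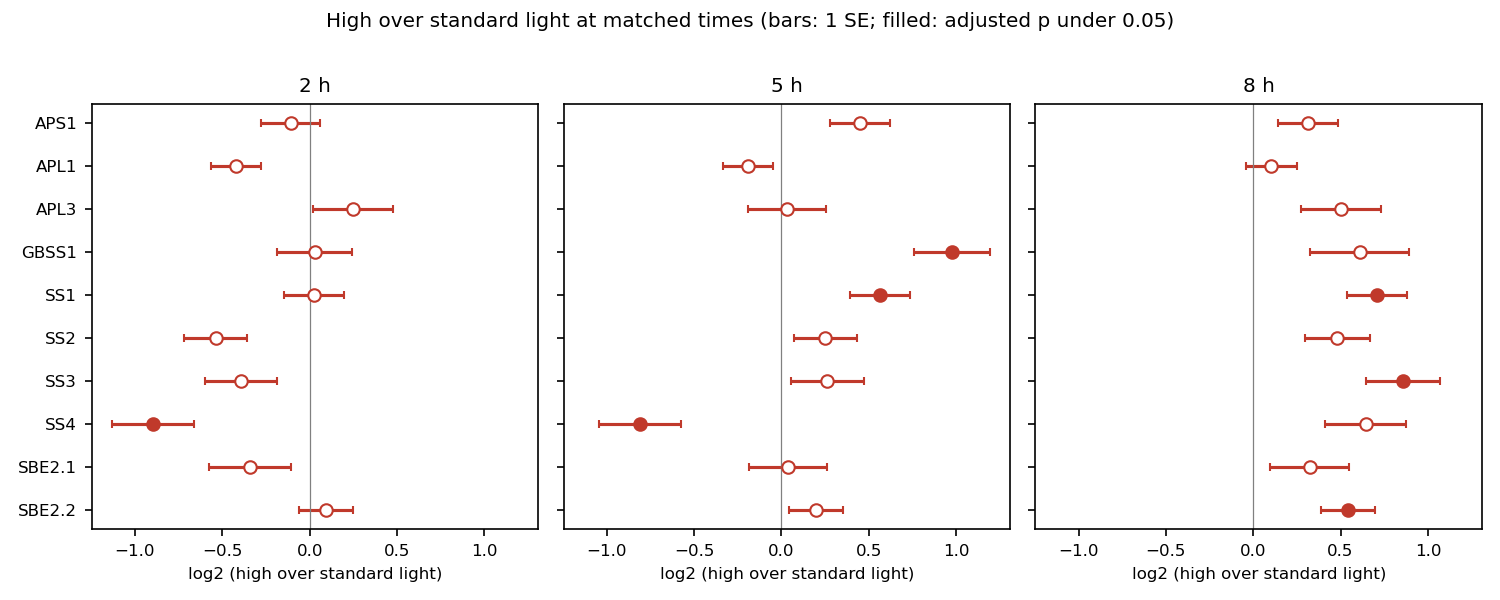
Log2 fold change of high over standard light at 2, 5 and 8 h for each member, with bars of 1 SE from edgeR's fit. Filled points have an adjusted p under 0.05. SS4 lies at -0.90 at 2 h, -0.81 at 5 h and 0.65 at 8 h, and at 8 h all 10 points lie above 0.

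Averaged over the 3 times, the effect of high light was above 0 for SS1 (log2 0.43 ± 0.10 SE, adjusted p = 0.00267), GBSS1 (0.54 ± 0.14 SE, adjusted p = 0.00666) and SBE2.2 (0.28 ± 0.09 SE, adjusted p = 0.0279), which is 3 of 10 members, against 12% of all loci that rose and 9.91% that fell. Without 5 h high-light replicate 3, APS1 (adjusted p = 0.02) and SS4 (log2 -0.45, adjusted p = 0.00653) were called as well, which made 5. The SBE2.2 call was lost without replicate 1 (0.0532) or 3 (0.0566) of 5 h standard light, replicate 2 of 8 h standard light (0.0729), 2 h high light (0.0538) or 5 h high light (0.0713), and replicate 1 of 8 h high light (0.0537). It was also lost with no filter on low counts (0.111). SS4, for which the averaged effect was -0.35 ± 0.13 SE (adjusted p = 0.0606), was called as lower in high light with DESeq2 (adjusted p = 0.0456), limma voom (0.0351), no filter on low counts (0.0245) and a fit without the dark libraries (0.0353), and without 2 h high-light replicate 3 (0.0473). DESeq2 also called APL1 as lower (log2 -0.17, adjusted p = 0.023), and SS3 was called as higher without 2 h standard-light replicate 1 (log2 0.35, adjusted p = 0.0233).

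The effect of high light differed between 8 h and 2 h for 3 soluble synthases, SS2, SS3 and SS4. The log2 effect at 8 h minus that at 2 h was 1.54 ± 0.33 SE for SS4 (adjusted p = 0.00421), 1.25 ± 0.30 SE for SS3 (adjusted p = 0.00841) and 1.02 ± 0.26 SE for SS2 (adjusted p = 0.0136), and 5.07% of all loci rose and 5.14% fell in this test. For SS4 the effect was -0.90 at 2 h and 0.65 at 8 h, for SS3 it was -0.40 and 0.86, and for SS2 it was -0.54 and 0.48. The ribosomal RNA share was lower in high than in standard light at 2 h, by group means of 1.78% and 11.6%, and higher at 8 h, by group means of 23.0% and 5.38%. With the log2 of that share in each library as a covariate none of the 3 was called. The adjusted p in edgeR was 0.0548 for SS4, 0.0519 for SS3 and 0.0988 for SS2, with log2 differences of 0.98, 1.11 and 0.83. The same fit called SS1 (log2 difference 1.04, adjusted p = 0.00871) and APS1 (log2 difference 0.80, adjusted p = 0.0287), so that the number of members called was 2. The part of the ribosomal RNA share in these differences was not otherwise tested. Without the covariate SS1 had a log2 difference of 0.68 ± 0.24 SE (adjusted p = 0.0723), which passed with DESeq2 (adjusted p = 0.0308), in a fit limited to the libraries of 2 h and 8 h light (0.0451), without 2 h high-light replicate 2 (0.0249) and without replicate 1 of 2 h standard light and replicate 3 of 5 h high light together (0.045). DESeq2 also called APL1 (log2 difference 0.53, adjusted p = 0.00503).

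The balance between isoforms of the same step moved over the day. As a share of CPM per kilobase over the 5 synthases, GBSS1 made up 56.4% ± 0.159 in the dark (SD, n = 3 for each share in this paragraph). In high light its share was 67.4% ± 4.30 at 2 h, 36.9% ± 5.51 at 5 h and 1.50% ± 0.339 at 8 h, and in standard light 60.8% ± 5.87, 23.3% ± 6.18 and 1.55% ± 0.152. By group means of CPM per kilobase, GBSS1 was thus the largest of these synthases in the dark and at 2 h in both lights. At 5 h of high light it had the largest mean as well, but with overlapping spreads (31.4 ± 8.47, against 25.7 ± 5.41 for SS1, SD, n = 3 each). It was not the largest at 5 h of standard light (16.0 ± 5.19, against 22.5 ± 1.49 for SS4, SD, n = 3 each). At 8 h it was the smallest in both lights. Within the 4 soluble synthases SS4 had 16.8% ± 5.11 in the dark. Its share was 20.8% ± 3.05, 24.6% ± 8.89 and 52.9% ± 1.24 at 2, 5 and 8 h of high light and 29.3% ± 2.21, 43.5% ± 2.31 and 53.9% ± 2.42 at those times of standard light. SBE2.1 was the smaller branching enzyme in the dark, with 29.5% ± 2.42 of both. It held 20.0% ± 4.15, 59.6% ± 8.35 and 54.9% ± 4.44 at 2, 5 and 8 h of high light, and 24.9% ± 4.72, 62.3% ± 2.29 and 58.6% ± 3.67 in standard light, so that it was the larger one from 5 h on in both lights. APL3 had 5.87% ± 0.935 of the sum of APL1 and APL3 in the dark and its highest shares at 5 h, of 25.7% ± 6.50 in high light and 22.8% ± 3.04 in standard light. These shares are descriptions and were not tested.

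**Figure D4:**
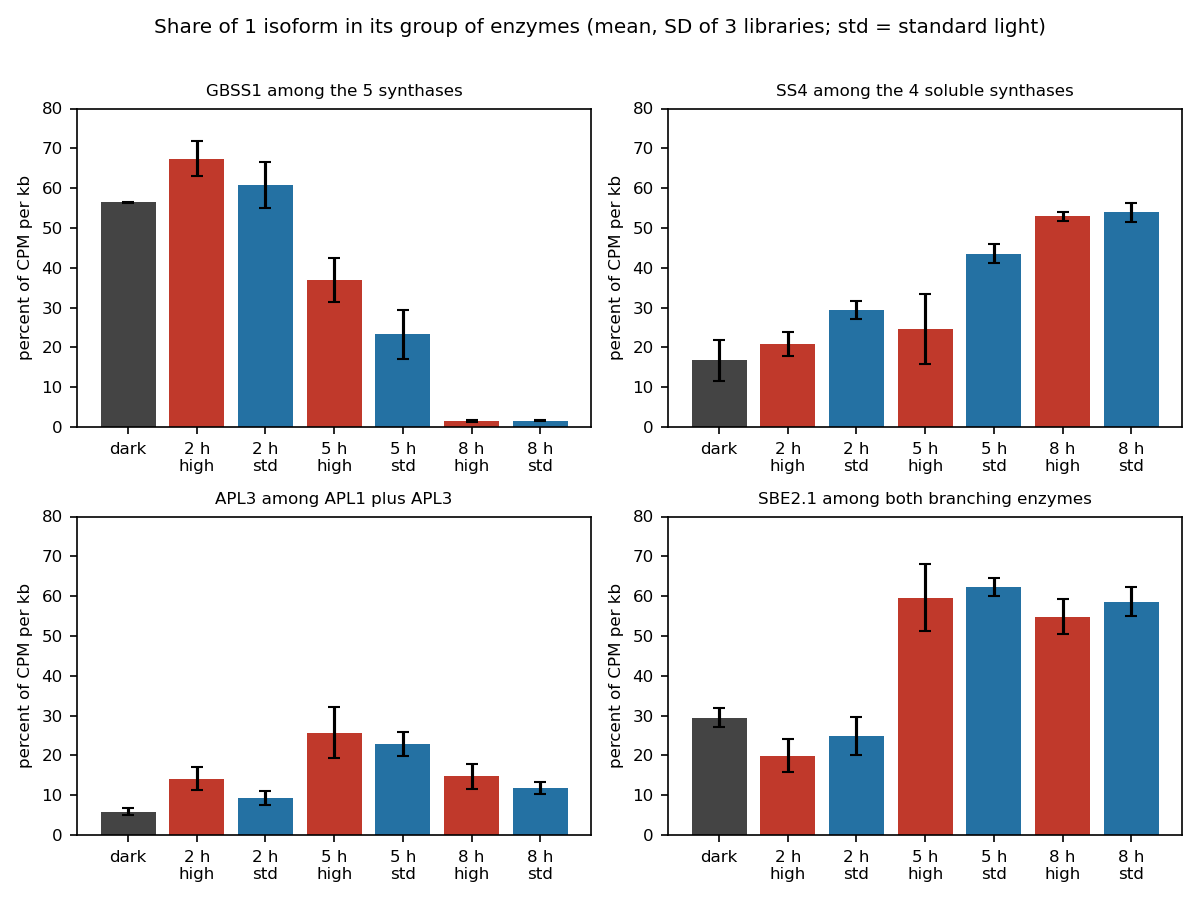
Share of GBSS1, SS4, APL3 and SBE2.1 in the summed level of their enzyme group, in percent of CPM per kilobase of gene span, for the dark control and for 2, 5 and 8 h of high and standard light (std). Bars are means of 3 libraries from 0 and whiskers are SD. GBSS1 is at 1.50% in high light and 1.55% in standard light at 8 h, and SBE2.1 is above 50% in the 4 groups at 5 h and 8 h.

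A list of 19 other genes of starch synthesis, all 19 of which were tested, moved over dark in both directions. In high light 9, 10 and 8 of them rose and 2, 5 and 3 fell at 2, 5 and 8 h, and in standard light 11, 11 and 7 rose and 2, 3 and 4 fell. Of all loci 21.8%, 24.3% and 23.4% rose and 21.5%, 22.8% and 23.9% fell at these times of high light, and 21.1%, 22.9% and 21.1% rose and 21.4%, 23.8% and 21.7% fell in standard light, so that the counts of list genes that fell lay near or below those shares. The isoamylase-type debranching gene ISA2 rose over dark to 64.7 CPM at 5 h of high light and 75.7 CPM at 5 h of standard light, against 7.77 CPM in the dark, with log2 fold changes of 3.05 ± 0.23 and 3.28 ± 0.23 SE (adjusted p = 8.05e-11 and 3.17e-11). PTST, the scaffold that targets GBSS1 to the granule, averaged 23.1 CPM at 5 h of high light and 14.4 CPM at 5 h of standard light, against 1.67 CPM in the dark (log2 fold changes 3.79 ± 0.33 and 3.11 ± 0.33 SE). At 8 h, when GBSS1 was lowest, PTST averaged 17.2 CPM in high light and 8.97 CPM in standard light. The locus AT1G42430 averaged 6.97 CPM at 2 h of high light and 7.74 CPM at 2 h of standard light, against 332 CPM in the dark (log2 fold changes -5.57 ± 0.28 and -5.39 ± 0.28 SE). It fell over dark in all 6 light groups, and the locus AT4G32190 fell at 5 h and 8 h in both lights. TRXF2, a chloroplast f-type thioredoxin, fell over dark in all 6 light groups as well.

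Between the lights, 19 of 19 of these other genes were without a call at 2 h by edgeR, with 1 at an unadjusted p under 0.05 and none by DESeq2. At 5 h 1 rose, the phosphoglucose isomerase gene PGI1 (log2 fold change 0.61 ± 0.20 SE, adjusted p = 0.043), and 1 fell, TRXF2 (-1.13 ± 0.24 SE, adjusted p = 0.00355). At 8 h 5 rose and 1 fell. Those with the largest changes were AT3G55760, with 22.3 CPM in high light and 7.60 CPM in standard light (adjusted p = 0.00773), PTST, with 17.2 and 8.97 CPM (adjusted p = 0.0248), and the plastid inorganic pyrophosphatase gene PPA6, with 163 and 90.0 CPM (adjusted p = 0.00836). TRXF2 fell to 11.7 CPM in high light, against 24.4 CPM in standard light (adjusted p = 0.00242). A list of 19 starch breakdown genes, given for comparison, had 0, 2 and 9 that rose and 2, 0 and 0 that fell in high light over standard light at 2, 5 and 8 h. Of all loci 1.45%, 7.29% and 7.79% rose and 1.22%, 4.74% and 7.62% fell at those times. The median log2 fold change of this list at 8 h was 0.50, against -0.03 over all loci. The largest rise at 8 h was that of BAM5, a beta-amylase outside the chloroplast, with 211 CPM in high light and 14.9 CPM in standard light (adjusted p = 0.00153), followed by LSF1 with 28.9 and 12.7 CPM (adjusted p = 0.000233).

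The 5 tested genes whose log2 CPM followed that of GBSS1 most closely over the 21 libraries were NDA1 (Pearson r = 0.992), BBX16 (0.988), AXR3 (0.982), AT3G01060 (0.981) and AT1G72130 (0.973). These r are descriptions over libraries that share 7 groups and the same library sizes. NDA1, an alternative NAD(P)H dehydrogenase, averaged 67.0 CPM in the dark and 119, 42.6 and 5.42 CPM at 2, 5 and 8 h of high light. In standard light NDA1 averaged 126, 33.9 and 3.96 CPM. BBX16, a B-box zinc finger protein, averaged 40.9 CPM at 2 h and 1.16 CPM at 8 h of high light, and 42.7 and 1.07 CPM at those times of standard light. AXR3, an auxin response repressor of the Aux/IAA family, averaged 65.2 and 6.09 CPM at 2 h and 8 h of high light, and 50.4 and 4.22 CPM in standard light. Each of these 3 was highest at 2 h and lowest at 8 h in both lights, as GBSS1 was. That likeness follows largely from their choice by r in these same libraries.

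In the authors' deposited table of their own edgeR glmTreat comparisons, a test against a minimum fold that the sources used here do not state, the members appear in the 6 comparisons over dark. That table lists 4, 6 and 5 members at 2, 5 and 8 h of high light and 6, 5 and 5 at those times of standard light. GBSS1 is listed there with a log2 fold change over dark of -5.38 at 8 h of high light and -6.01 at 8 h of standard light, and SBE2.1 with 3.15 at 5 h of high light and 3.10 at 5 h of standard light. None of the members is among the 24, 307 and 603 genes that the authors' deposited table lists for high over standard light at 2, 5 and 8 h.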

How the data were processed

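Gene-level RNA-seq counts of 21 libraries were used. Per the labels' protocols, stranded libraries were made from total RNA with depletion of plant ribosomal RNA and sequenced as single-end 75 bp reads. Read trimming with Trim Galore 0.4.4, alignment tools of Subread 1.5.0 and counting are named in the submitters' processing notes. The deposited raw counts came from featureCounts 1.5.0-p1 per the file headers, reverse-stranded, over 1 span per gene with introns included, and without chimeric fragments. The build behind them was not stated. Of 33341 loci, 32908 had the same start and end as in TAIR10.1, which supplied names, coordinates and upstream sequence. The authors' deposited table of comparisons holds log2 fold changes, average log2 CPM and adjusted p-values (FDR), and is quoted only where named. A deposited log2 RPKM table (21 columns) was not used.

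Groups and replicate numbers came from the sample titles. The labels call the libraries biological triplicates without saying how plants were pooled, so p-values reflect only how far these samples spread, and intervals and floors of counts cover counting error only. All 21 libraries entered 1 fit in edgeR 4.0.16 (R 4.3.3) with TMM scaling, filterByExpr, robust glmQLFit and glmQLFTest, and with p-values adjusted by the Benjamini-Hochberg method over 19626 loci within each of 13 comparisons. SE is the log2 fold change divided by the root of the F statistic. The script was tested on simulated data. Log2 CPM for the likeness to GBSS1 used a prior count of 2. Alternatives were DESeq2 size factors, DESeq2 1.42.0, limma voom 3.58.1, no filter, the ribosomal RNA share as a covariate, nuclear loci other than ribosomal RNA only, a replicate block, only the groups compared, each library left out and, chosen after seeing the data, replicate 1 of 2 h standard light and replicate 3 of 5 h high light left out together. Where the ribosomal RNA share was a covariate, it entered the fit as the log2 of the share in each library. Between replicates of a group, counts differed by more than sampling noise in every pair. The members and gene lists were chosen with earlier results of these data known. All 10 members are named, and from each list the genes that passed with the 3 largest changes in each direction could be named.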

Additional observations from a re-analysis of the deposited data

Results flagged for a closer look

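The effect of high over standard light differed between 8 h and 2 h for 3 of the 4 soluble synthases, by the test of that difference in edgeR. The log2 difference was 1.02 for SS2 (adjusted p = 0.0136), 1.25 for SS3 (adjusted p = 0.00841) and 1.54 for SS4 (adjusted p = 0.00421). In SS4 every high-light library was below every standard-light library at 2 h and above every one at 8 h. The same held for SS2, with 27.2, 24.3 and 30.1 CPM in high light and 38.3, 40.6 and 39.4 CPM in standard light at 2 h, and 13.5, 14.3 and 16.9 CPM in high light and 11.5, 10.3 and 10.1 CPM in standard light at 8 h. In SS3 the libraries of both lights overlapped at 2 h and were apart at 8 h. By group means, the ribosomal RNA share was lower in high than in standard light at 2 h and higher at 8 h. At 2 h the libraries of both lights overlapped in that share, with 4.98% in high-light replicate 3 and 4.57% in standard-light replicate 3. With that share in the fit the log2 differences were 0.83 for SS2, 1.11 for SS3 and 0.98 for SS4, with adjusted p of 0.0988, 0.0519 and 0.0548 in edgeR, and SS1 (1.04, adjusted p = 0.00871) and APS1 (0.80, adjusted p = 0.0287) were called. The cause was not tested.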

How the results depend on the processing

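Of 72 called changes of single members over the 13 comparisons, 55 stayed called under every alternative that could be fitted and 17 were lost under at least 1, and none was reversed. Among 1095 alternative values of called changes 60 were no longer called, and among 975 of uncalled ones 44 were called. The number of members called for high over standard light at 2 h, 1 as reported, was 3 with DESeq2 and 0 with the ribosomal RNA share as a covariate, with the replicate block, with only the groups compared and with replicate 1 of 2 h standard light and replicate 3 of 5 h high light left out together. With only the groups compared it was 0 at 5 h and 6 at 8 h, where 3 were reported for each. DESeq2 called 5 members in the effect averaged over the 3 times and 5 in the effect at 8 h minus that at 2 h, and leaving out both libraries named above gave 5 in the averaged effect, where 3 were reported for each. The causes of these differences were not tested. For each count of genes under an alternative, in this section and above, the share of all loci called in that fit was not counted. A change in such a count therefore cannot be told apart from a change in how many loci the fit called.

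Leaving out 1 library at a time gave 0 to 1 members for high over standard light at 2 h, 1 to 4 at 5 h and 1 to 3 at 8 h. It gave 7 to 8, 6 to 7 and 6 to 8 members over dark at 2, 5 and 8 h of high light, and 9 to 10, 7 to 8 and 6 to 7 at those times of standard light. For 8 h over 2 h it gave 4 to 5 in high light and 7 to 8 in standard light, for the averaged effect 2 to 5, and for the effect at 8 h minus that at 2 h 3 to 4.

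By the median, libraries with the same replicate number were hardly more alike than libraries with different numbers. Over 63 pairs with the same number in different groups, the correlation of deviations from group means ran from -0.14 to 0.33. Its median was 0.00, and 2 pairs were over 0.1. Over 126 pairs with different numbers it ran from -0.30 to 0.22, with a median of -0.004 and 6 pairs over 0.1. The replicate block gave 0 instead of 1 member at 2 h of high over standard light and changed no other count. Scaling on nuclear loci other than ribosomal RNA ended no call. Introns are part of each count, so unspliced and spliced RNA are not separated. With 3 libraries a group, what can be called between the lights is limited. In the fit reported every member differed by less than 2-fold there at each time, and the largest difference was 1.97-fold, for GBSS1 at 5 h.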
